A study of Rattus norvegicus with 6 samples.

Results

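A panel of 10 surface proteins by which marrow stromal cells are recognised was followed at the level of their messenger RNA: Thy1, Nt5e, Eng, Cd44, Alcam, Mcam, Vcam1, Lepr, Pdgfra and Pdgfrb. They were taken from the deposited table by gene symbol, and each of the 10 symbols stood on a single gene identifier among 23091 genes. The RNA came from mesenchymal stem cells of wild-type rat marrow, for which the labels give no strain, age or sex of the animals. The 3 CK samples were held for 7 days in medium for neural differentiation with the solvent DMSO, and the 3 CYSP samples for the same 7 days in that medium with CYSP, an agent whose name the labels leave unexplained. Both groups therefore share the neural medium, and no sample of untreated stromal cells was analysed here. The series asks how transcription changes as such cells are driven toward a neuron-like state.

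Stromal cells have no single defining antigen and are recognised by a combination of surface proteins. Thy1 (CD90) and Nt5e (CD73) are held in the membrane by a glycolipid anchor, and Eng (CD105) is a co-receptor for ligands of the TGF-beta family, and these 3 form the usual panel for cultured human stromal cells. Cd44, Alcam (CD166), Mcam (CD146) and Vcam1 (CD106) are adhesion molecules, the last 3 of the immunoglobulin family. Lepr, Pdgfra and Pdgfrb are signalling receptors. In marrow, Lepr and Vcam1 mark stroma around the sinusoids that supports blood stem cells, and Mcam and Pdgfrb are shared with pericytes, the cells that wrap small vessels.

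Total counts per sample lay between 15060933 and 17244700, so that the limit which a count of 0 allows, 3 counts, corresponds to 0.174 to 0.199 CPM (counts scaled to a common library total). That limit covers counting error only. Across tested genes the correlation of log2(CPM + 1) was 0.995 to 0.996 between samples of a group and 0.849 to 0.852 between groups, and no library stood apart from its group. The labels do not say that replicates are separate cultures or animals, so p-values measure the spread between these samples only, which may be technical. The labelled cell type was checked against 12 fibroblast and stromal genes, all of which were tested. Their summed level was 115783 to 118540 CPM in CK and 107387 to 110556 CPM in CYSP. Of these genes 6 were higher and 6 lower, beside 38.2% and 37.8% of all tested genes. Single genes of that list moved far in either direction: Fn1 (fibronectin) rose from 18480 to 51561 CPM and Dcn (decorin) from 195 to 7848 CPM, while the collagen genes Col1a1 (40665 CPM in CK, 9668 in CYSP) and Col1a2 (25781 CPM in CK, 5322 in CYSP) fell.

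The marker panel split under CYSP. Thy1, Nt5e, Eng, Cd44 and Pdgfra rose, Alcam, Mcam, Vcam1 and Pdgfrb fell, and Lepr did not pass the test. By edgeR's quasi-likelihood test at an adjusted p of 0.05, 5 of 10 markers were higher, beside 38.2% of the 12623 tested genes, and 4 of 10 were lower, beside 37.8%. In either direction 9 of 10 passed, where 76.1% of all tested genes did, so passing this test was common in these samples. A near-even division into higher and lower was likewise seen over all tested genes and is not particular to the panel. CPM of the groups did not overlap for 8 of 10 markers, beside 77% of tested genes. The median log2 fold change was 0.16 over the markers and 0.00461 over all tested genes, and the median absolute log2 fold change was 0.76 and 0.53. All 10 markers passed the filter on low counts. RNA from bulk cultures cannot tell fewer cells of a type from less RNA per cell.

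**Figure D1:**
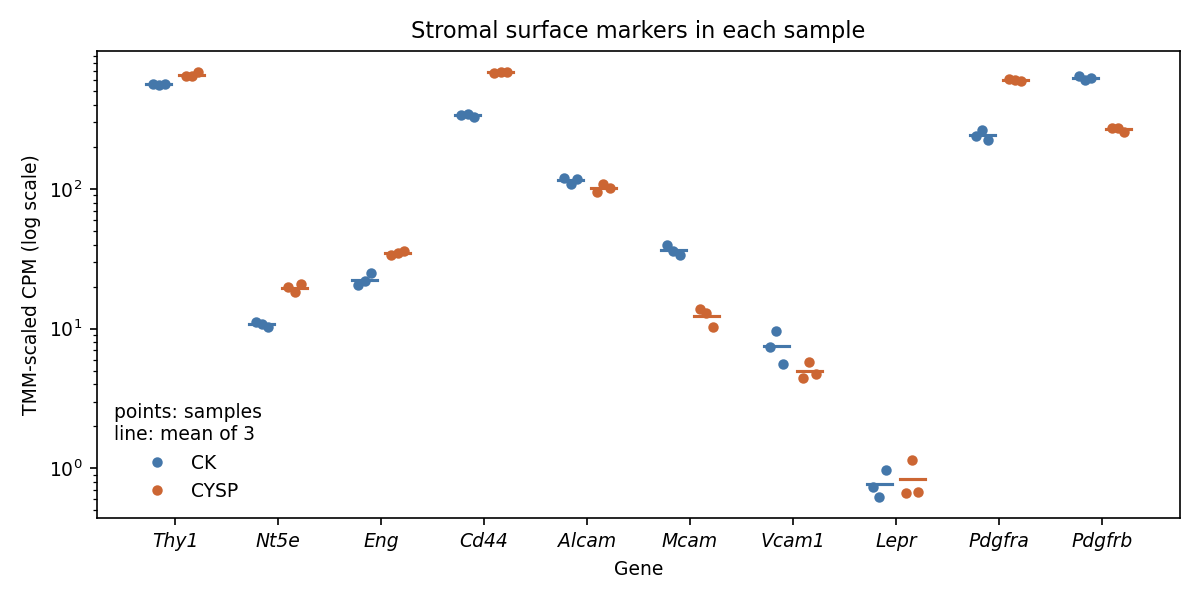
Scaled counts (CPM, log axis) of the 10 markers in each of the 6 samples, with blue points for CK, orange points for CYSP and a line at the mean of 3. The groups overlap for Vcam1 and Lepr and are separate for the other 8 genes, and Lepr lies near 0.8 CPM in both groups.

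The size of the changes was moderate. Changes of 1 or more on the log2 scale, in either direction, were seen in 4 of the 10 markers, Pdgfra, Cd44, Pdgfrb and Mcam, and in 27.9% of tested genes. A test against a change of that size (edgeR's glmTreat) called Pdgfra higher and Pdgfrb and Mcam lower, with 21.6% of tested genes called. The coefficient of biological variation estimated across genes was 0.0393, which is small. With 0.2 assumed in its place 46.8% of tested genes were called, and Thy1, Alcam and Vcam1 lost their calls. With 0.4 assumed 21.4% were called, and Pdgfra and Mcam remained of the markers.

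**Figure D2:**
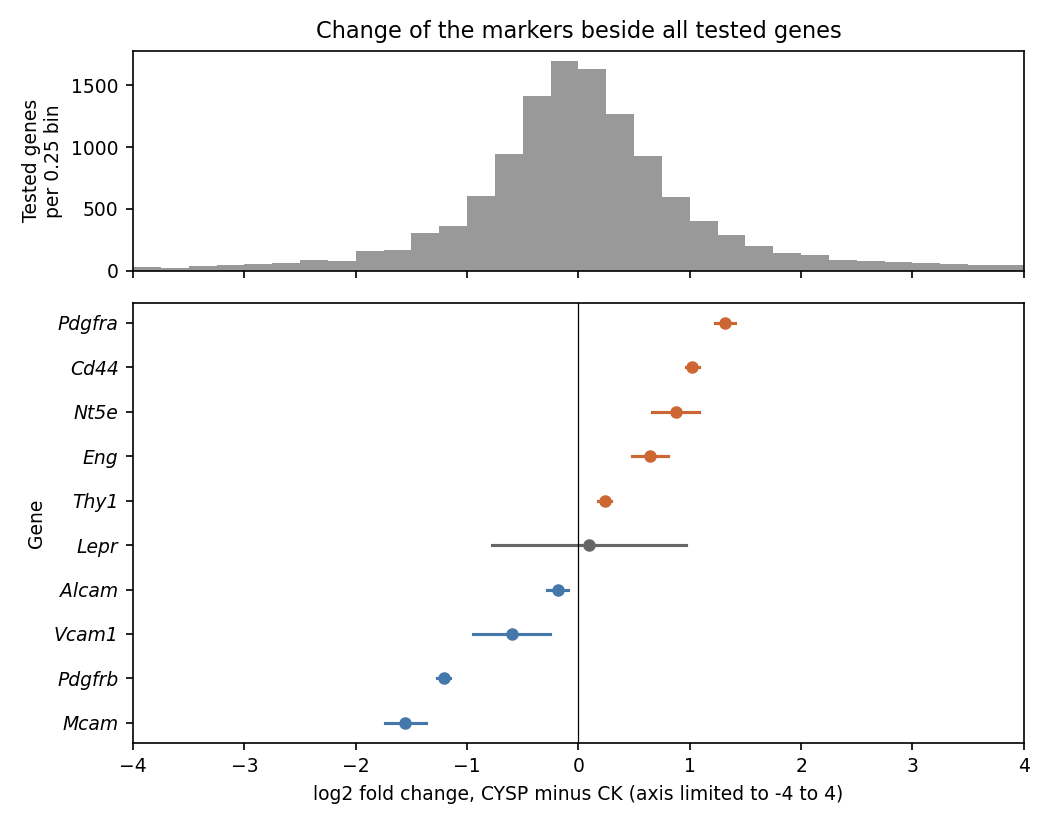
Upper panel, number of tested genes by log2 fold change (CYSP minus CK) in bins of 0.25. Lower panel, the 10 markers on the same axis with 95% intervals, orange for higher, blue for lower and grey for not passing. The interval of Lepr runs from -0.78 to 0.97 and covers 0.

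Among the 3 antigens of the usual panel, Thy1 was abundant and changed least. Its CPM was 569, 555 and 562 in the CK samples and 645, 651 and 688 in the CYSP samples. Every CYSP sample lay above every CK sample, by a small margin. The log2 fold change was 0.23 (SE 0.028, edgeR adjusted p = 8.22e-12), a 1.18-fold difference, and 75% of tested genes changed by more. Scaling by library size alone gave a log2 fold change of 0.15. In the authors' deposited table Thy1 had a log2 fold change of 0.15 with an adjusted p of 0.197, the only marker besides Lepr above 0.05 there.

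Nt5e, the ectoenzyme that turns extracellular AMP into adenosine, was a low transcript that rose. Its CPM was 11.1, 10.8 and 10.3 in CK and 20.0, 18.3 and 20.8 in CYSP, so that the groups were well apart. Summed counts were 540 in CK and 904 in CYSP, and the fitted log2 fold change was 0.87 (SE 0.11, edgeR adjusted p = 1.51e-11). Nt5e stands in a chain of ectoenzymes and receptors. The 11 tested genes of that list divided into 6 higher and 5 lower, beside 38.2% and 37.8% of all tested genes. Their median log2 fold change was 0.13. Entpd1 (CD39), which makes the AMP that Nt5e uses, fell from 23.2 ± 1.69 to 4.57 ± 0.621 CPM. Such pairs of values are means with their SD over 3 samples. Enpp1, another ectoenzyme that yields AMP, fell from 618 ± 7.59 to 37.6 ± 1.15 CPM. The tested adenosine receptor genes, Adora2a and Adora2b, moved the other way. Adora1 did not pass the filter, with 4 counts in CK and 22 in CYSP, and Adora3 was at 0 in every sample. Adora2b rose from 2.55 ± 0.271 to 37.2 ± 0.682 CPM, and Adora2a rose from 0.536 ± 0.256 to 5.59 ± 0.739 CPM. Ada, which degrades adenosine, fell from 11.1 ± 0.963 to 5.4 ± 0.887 CPM. The enzymes of the list did not move one way. Enpp3, which also yields AMP, rose from 26.2 ± 1.16 to 121 ± 2.69 CPM. Alpl and Acp3, phosphatases that can make adenosine as Nt5e does, rose by log2 fold changes of 1.10 and 0.68. Adk, the kinase that removes adenosine inside the cell, had a log2 fold change of 0.13 (edgeR adjusted p = 0.0445).

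Eng rose by less. Its CPM was 20.4, 21.8 and 25.1 in CK and 33.8, 34.9 and 36.2 in CYSP. The CK samples were the more scattered, and the groups did not overlap. The log2 fold change was 0.64 (SE 0.08, edgeR adjusted p = 3.15e-11), a 1.56-fold difference. Most genes listed with it (receptors, ligands, Smad signal transducers and a protease) went the opposite way. That list had 15 tested genes, 12 lower and 3 higher, beside 37.8% and 38.2% of all tested genes. Its median was -0.74 on the log2 scale. Acvrl1, the type I receptor with which endoglin works in endothelial cells, fell from 38.6 ± 2.11 to 1.62 ± 0.358 CPM. Of the ligand genes, Tgfb3 fell from 441 ± 29.6 to 17.8 ± 0.241 CPM and Tgfb2 from 427 ± 11.6 to 63.4 ± 1.74 CPM. The 3 higher were Tgfbr3, the related co-receptor betaglycan, from 7.11 ± 0.586 to 54.8 ± 2.99 CPM, the signal transducer Smad3, from 31.7 ± 1.91 to 60.5 ± 6.48 CPM, and Mmp14, a membrane protease that can shed endoglin, from 596 ± 16.3 to 963 ± 21.8 CPM. Eng is also an endothelial marker. Of 12 endothelial genes, Eng included, 7 were tested. Of these 4 rose (Eng, Kdr, Vwf and Esam) and 3 fell (Tek, Tie1 and Flt1), beside 38.2% and 37.8% of all tested genes. The summed level of the list was 30.9 to 36.2 CPM in CK and 45.4 to 47.6 CPM in CYSP. Eng alone went from 22.4 ± 2.38 to 35.0 ± 1.18 CPM, so the rise of the sum largely repeats that of Eng. Emcn and Robo4 were at 0 in every sample, and Pecam1 and Cdh5, which define endothelium, summed to 8 and 7 counts in CK and to 6 and 7 in CYSP.

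Cd44, the hyaluronan receptor, was the second marker in size of increase. Its CPM was 339, 346 and 329 in CK and 681, 688 and 689.7 in CYSP, with little scatter in either group. The fitted change was 1.02 (SE 0.029, edgeR adjusted p = 6.77e-47), a 2.03-fold difference. In the list of hyaluronan genes and other Cd44 partners, 13 genes were tested, 6 of them higher, 4 lower and 3 without a call. Of all tested genes 38.2% were higher and 37.8% lower. Has2, the only hyaluronan synthase gene that passed the filter, was at 69 ± 1.62 CPM in CK and 66.2 ± 4.79 in CYSP (edgeR adjusted p = 0.297). Cemip2, a cell-surface protein tied to hyaluronan breakdown, rose from 34.6 ± 3.22 to 305 ± 4.13 CPM. The Cd44 ligands Spp1 (osteopontin) and Srgn (serglycin) rose by log2 fold changes of 2.04 and 3.58. The 3 linkers that tie the tail of CD44 to actin all fell, Msn by 1.97, Rdx by 0.84 and Ezr by 0.23 on the log2 scale.

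Leukocytes also carry Cd44 and Alcam, and leukocyte transcripts were present in these cultures. Of 17 blood-cell and macrophage genes 13 were tested, of which 10 fell and 2 rose (Cd163 and Mrc1), beside 37.8% and 38.2% of all tested genes. The summed level of this list was 1088 to 1230.4 CPM in CK and 598 to 602 CPM in CYSP. Cd79a and Cd3e were at 0 in every sample. Adgre1, the largest part of the sum in CK, fell from 554 ± 49.2 to 212 ± 4.14 CPM. Ptprc, the pan-leukocyte antigen CD45, fell from 62.4 ± 4.06 to 21.8 ± 2.63 CPM. Of the 2 markers, Cd44 rose and Alcam fell. The part of leukocytes in the values of Cd44 and Alcam was not tested.

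Alcam and Thy1 showed the smallest changes among the markers that passed, and which of them was smaller depended on the scaling. Its CPM was 120.3, 109 and 119 in CK and 95.1, 108.6 and 102 in CYSP. The highest CYSP sample, at 108.6, lay just under the lowest CK sample, at 108.8. Its log2 fold change was -0.19 (SE 0.046, edgeR adjusted p = 2.17e-04), and 79.7% of tested genes changed by more. Scaling by library size alone gave -0.27 for Alcam, beside 0.15 for Thy1.

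Mcam had the largest decrease of the panel. Its CPM was 39.7, 36.0 and 33.7 in CK and 13.8, 13.0 and 10.3 in CYSP, with a wide gap between the groups. On the log2 scale the change was -1.55 (SE 0.093, edgeR adjusted p = 9.2e-26), a 2.94-fold difference. The list of ALCAM and MCAM partners had 8 tested genes, 4 higher and 4 lower, beside 38.2% and 37.8% of all tested genes. Lama4, a chain of the laminin that MCAM binds, rose from 430 ± 20.1 to 635 ± 3.39 CPM, and Wnt5a, a secreted signal also linked to MCAM, rose from 41.7 ± 5.42 to 1128 ± 8.39 CPM. The galectin genes of the list fell as Mcam did, Lgals3 by 1.17, Lgals1 by 0.60 and Lgals8 by 0.20 on the log2 scale. In the RefSeq annotation of assembly GRCr8, Thy1 and Mcam lie near each other on chromosome 8 with 4 protein-coding genes wholly between them, and Thy1 rose where Mcam fell.

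Vcam1 was low and its decrease was the least secure. Its CPM was 7.39, 9.61 and 5.56 in CK and 4.43, 5.74 and 4.71 in CYSP. The highest CYSP value, 5.74, lay above the lowest CK value, 5.56, so the groups overlapped in scaled CPM, while in deposited FPKM the lowest CK sample, at 1.886, lay above the highest CYSP sample, at 1.834. From 376 counts in CK and 227 in CYSP the fit gave a log2 fold change of -0.60 (SE 0.17, edgeR adjusted p = 0.00145). Without CK replicate 2, the highest sample, it was -0.39 (edgeR adjusted p = 0.0568). All 10 listed genes of integrins that bind VCAM1 and Thy1 were tested. Of these 4 were higher and 6 lower, beside 38.2% and 37.8% of all tested genes. The largest changes of the list were in 2 low transcripts. Itgb7 went from 8 to 178 summed counts (log2 fold change 4.54) and Itga9 from 353 to 38 (log2 fold change -3.07). Itga4, the alpha chain of the main VCAM1 receptor, rose by 0.62 on the log2 scale and its beta partner Itgb1 fell by 0.97, from 2537 ± 33.6 to 1297 ± 18.7 CPM. Icam1, the other inducible immunoglobulin adhesion molecule on the lists, fell from 133 ± 11.6 to 86.8 ± 1.32 CPM.

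The upstream sequences of Vcam1 and Nt5e are shown because both genes changed and their 250 bases before the transcription start precede every annotated transcript of the gene. They are from RefSeq, build GRCr8, 5′ to 3′ on the strand of the gene. Capitals mark every match, on either strand, to TATAAA, to the kappaB consensus, to ACGTG or GCGTG (cores of hypoxia response elements) and to TGANTCA (the AP-1 site). Vcam1 lies on the minus strand at chr2:206742784-206743033 and Nt5e on the plus strand at chr8:98150675-98150924.
Vcam1: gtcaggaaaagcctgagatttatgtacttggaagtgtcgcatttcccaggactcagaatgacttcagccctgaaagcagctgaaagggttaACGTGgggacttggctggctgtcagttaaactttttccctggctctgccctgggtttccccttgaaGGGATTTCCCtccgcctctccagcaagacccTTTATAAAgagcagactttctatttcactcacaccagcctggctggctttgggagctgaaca
Nt5e: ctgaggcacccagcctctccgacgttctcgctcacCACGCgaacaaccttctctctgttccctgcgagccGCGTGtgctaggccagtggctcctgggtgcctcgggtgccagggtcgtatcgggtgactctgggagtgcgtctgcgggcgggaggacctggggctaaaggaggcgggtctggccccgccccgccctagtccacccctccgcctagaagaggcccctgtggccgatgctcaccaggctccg
In Vcam1 the capitals are ACGTG from base -159, a kappaB match from base -93 and TATAAA from base -60 (overlapped by its own complement) before the start. In Nt5e they are 2 matches to GCGTG, 1 on each strand. Promoter sequences were matched for 7 of the 10 markers, those of Nt5e, Eng, Cd44, Alcam, Vcam1, Lepr and Pdgfra. TATAAA was found in Vcam1 alone of these 7 and in 12.9% of all 33465 promoters of the same length. The kappaB consensus was in Eng, Alcam and Vcam1 and in 6.33% of all promoters, GCGTG was in Nt5e and Cd44 and in 25.9%, ACGTG was in Vcam1 and in 16.6%, and TGANTCA was in Pdgfra and in 6.34%. GC content was 68.8% upstream of Nt5e and 50.4% upstream of Vcam1, with a median of 51.2% over all promoters. These matches are letters in a window and are no evidence of a bound factor.

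Among the receptors, Lepr was barely detected. Its counts were 13, 10 and 16 in CK and 11, 17 and 10 in CYSP, with the groups fully interleaved. The fit gave a log2 fold change of 0.09 with a 95% interval of -0.78 to 0.97 (edgeR adjusted p = 0.854). That wide interval leaves room for a change in either direction. The gene of its ligand, Lep, had 1 count in each group. Leprot, whose annotated span overlaps that of Lepr in RefSeq, had 2111 and 2430 counts over the groups, and reads of overlapping genes may not be told apart. Downstream genes were nonetheless measured well. Leptin receptor signalling had 11 tested genes, 6 higher and 4 lower, beside 38.2% and 37.8% of all tested genes. The median of the list was 0.33 on the log2 scale. The lower ones included Irs2, from 58.9 ± 1.06 to 14.2 ± 1.13 CPM, and Ptpn2, with a log2 fold change of -0.28. The higher ones included the feedback inhibitor Socs3, from 17.3 ± 2.12 to 102 ± 5.08 CPM, and the kinase Jak2, from 197 ± 18.1 to 363 ± 7.39 CPM. These genes serve many cytokine receptors.

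The PDGF receptors exchanged places. Pdgfra, which binds most PDGF dimers and marks fibroblast and stromal progenitors, was at 37.9, 41.7 and 35.3 FPKM (fragments scaled for gene length and library total) in CK and 91.0, 90.1 and 89.3 FPKM in CYSP. Pdgfrb, which binds PDGF-B and PDGF-D and also marks pericytes, was at 127.0, 121 and 123 FPKM in CK and 51.5, 51.2 and 48.4 FPKM in CYSP. For both genes the groups were far apart. In counts, Pdgfra had a log2 fold change of 1.32 (SE 0.042, edgeR adjusted p = 2.56e-16) and Pdgfrb of -1.21 (SE 0.031, edgeR adjusted p = 4.14e-50). Within a sample the ratio of Pdgfra to Pdgfrb FPKM was 0.298, 0.345 and 0.287 in CK and 1.77, 1.76 and 1.85 in CYSP. Pdgfrb was thus the higher of the pair in all 3 CK samples and Pdgfra in all 3 CYSP samples. The log2 ratio differed by 2.54 (mean -1.69 ± 0.141 SD in CK and 0.84 ± 0.0385 in CYSP), a 5.8-fold shift, with an exact two-sided permutation p of 0.1, the smallest that 3 against 3 samples can give. The sum of the pair changed less, from 162 ± 3.18 to 140.5 ± 2.52 FPKM (mean ± SD, n = 3).

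**Figure D3:**
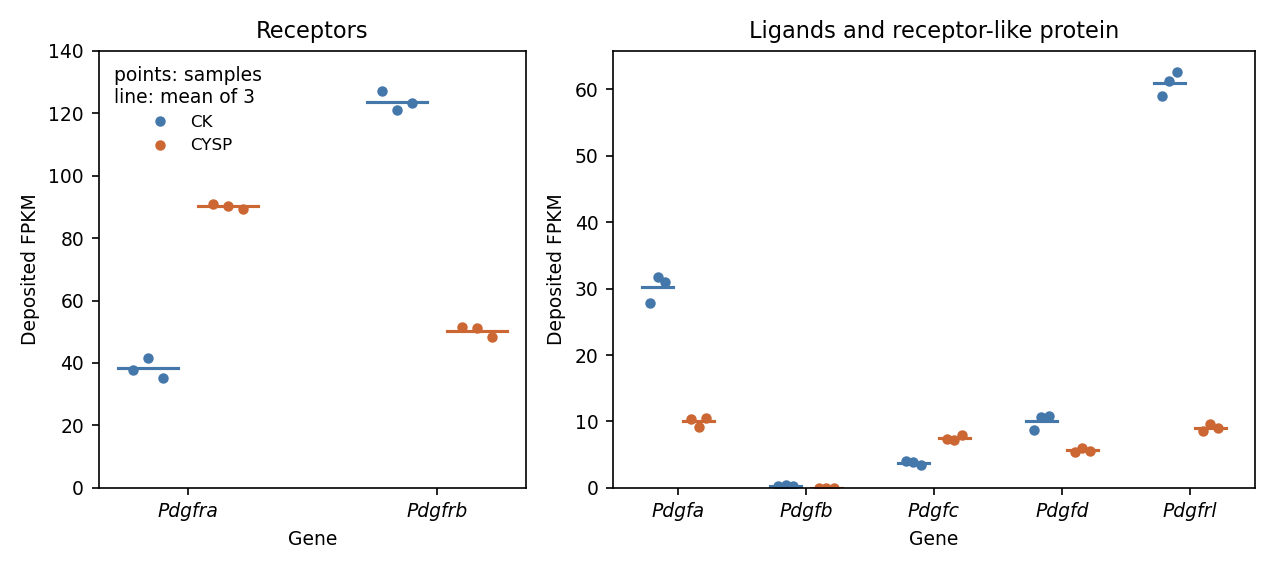
Deposited FPKM of the PDGF receptor genes (left) and of the ligand genes and Pdgfrl (right) in each sample, on linear axes, with blue points for CK, orange points for CYSP and a line at the mean of 3. Pdgfra goes from about 38.3 to 90.1 FPKM and Pdgfrb from 123.7 to 50.4 FPKM, and among ligands only Pdgfc is higher in CYSP.

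The ligand genes shifted too. Pdgfa fell from 30.2 ± 2.05 to 10.01 ± 0.784 FPKM and Pdgfd from 10.02 ± 1.19 to 5.68 ± 0.326 FPKM. Pdgfc, whose product acts mainly through PDGFRA, rose from 3.78 ± 0.306 to 7.49 ± 0.405 FPKM. Pdgfb summed to 26 counts in CK and to 0 in CYSP, at least 8.4-fold lower there against a floor of 3 counts over the group, and was not tested. Pdgfrl, which encodes a secreted receptor-like protein, fell from 61.0 ± 1.83 to 9.06 ± 0.484 FPKM. This list, which also holds adaptors and kinases, had 12 tested genes, 6 higher and 6 lower, and a median of -0.23 on the log2 scale. Of all tested genes 38.2% were higher and 37.8% lower.

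Pdgfrb and Mcam fell beside other genes of pericytes and smooth muscle. Of 12 genes on that list, Pdgfrb and Mcam included, 11 were tested, with 8 lower (beside 37.8% of all tested genes), 1 higher and 2 without a call. Pdgfrb and Mcam are themselves among the 8 lower, and the others are Acta2, Tagln, Myh11, Cnn1, Cspg4 and Abcc9. The summed level went from 8439.9 to 8619 CPM in CK to 357 to 384 CPM in CYSP, most of the former from the contractile genes Acta2 and Tagln. Cspg4 (NG2), a pericyte proteoglycan, fell from 189 ± 4.83 to 7.36 ± 0.155 CPM. Rgs5 summed to 38 counts in CK and to 0 in CYSP, at least 12.3-fold lower against the same floor. Notch3 was the gene that rose, from 24.3 ± 1.64 to 63.2 ± 2.99 CPM. Whether the cells that carry these transcripts account for the lower Pdgfrb and Mcam was not tested.

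Set side by side per length, the markers spanned a wide range. In CK the order by mean FPKM was Thy1, Pdgfrb, Cd44, Pdgfra, Alcam, Mcam, Eng, Nt5e, Vcam1 and Lepr, from 289.9 ± 2.82 down to 0.248 ± 0.0559 FPKM. In CYSP it was Thy1, Cd44, Pdgfra, Pdgfrb, Alcam, Eng, Nt5e, Mcam, Vcam1 and Lepr, from 323 ± 12.1 down to 0.252 ± 0.0838 FPKM. In both groups the ranges of each gene and the next lower one, over 3 samples, did not overlap. Thy1, Alcam, Vcam1 and Lepr, 4 of the 10, held the same position in both groups. Thy1 alone made up 47.6% of the summed FPKM of the panel in CK and 45.5% in CYSP, while the share of Cd44 went from 17.3% to 28.6% and that of Pdgfrb from 20.3% to 7.11%. The summed FPKM of the 10 markers was 608 ± 7.25 in CK and 709 ± 12.3 in CYSP.

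**Figure D4:**
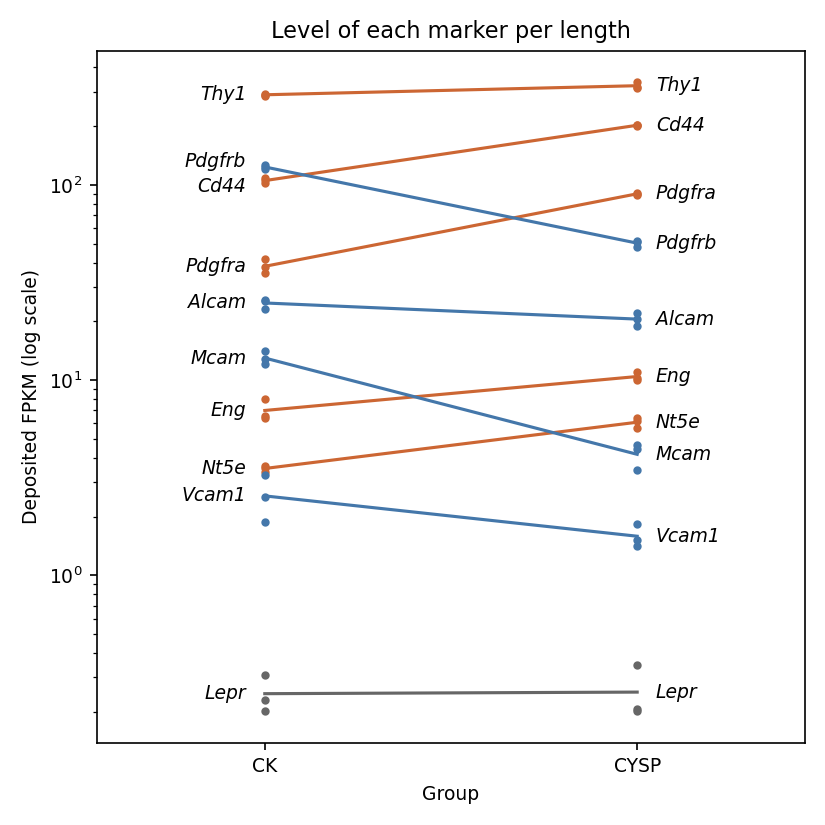
Deposited FPKM (log axis) of each marker in CK and CYSP, with a point per sample and a line between the group means, orange for higher, blue for lower and grey for not passing. Pdgfra crosses Pdgfrb, Cd44 passes Pdgfrb, and Eng and Nt5e pass Mcam.

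Other surface antigens used for marrow stromal cells rose more often than they fell. Of 29 listed 27 were tested, 18 of them higher and 9 lower, beside 38.2% and 37.8% of all tested genes. The median was 0.48 on the log2 scale. Anpep (CD13), an aminopeptidase of stromal cells, rose from 134 ± 4.61 to 310.03 ± 8.34 CPM, and Cd9, a tetraspanin, from 80.8 ± 4.01 to 466 ± 7.34 CPM. Sdc4, a heparan sulphate proteoglycan, had the largest increase of the list, with a log2 fold change of 3.5, and the collagen receptor chain Itga11 the largest decrease, with -5.02. Ngfr (CD271), another stromal antigen, did not pass the filter, with 15 counts in CK and 31 in CYSP.

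Genes for factors that stroma bearing Lepr and Vcam1 supplies in marrow were measured although Lepr itself was near its detection limit. The 17 tested niche genes divided into 10 higher and 6 lower, beside 38.2% and 37.8% of all tested genes. Their median was 0.51 on the log2 scale. Adipoq had the largest change of the list, from 10 summed counts in CK to 23846 in CYSP (log2 fold change 11.29). Cxcl12, the chemokine that retains blood stem cells, rose from 216 ± 19.3 to 403 ± 7.62 CPM, Kitlg (stem cell factor) from 13.3 ± 3.05 to 25.1 ± 2.12 CPM and Angpt1 from 17.6 ± 0.869 to 179 ± 3.67 CPM. Jag1, a Notch ligand, fell from 157 ± 18.3 to 27.2 ± 1.99 CPM and Bmp4 from 6.65 ± 0.686 to 1.37 ± 0.309 CPM. More abundant genes of the list fell as well. Apoe went from 1150 ± 74.2 to 335 ± 8.41 CPM, Grem1 from 934 ± 58.9 to 357 ± 6.4 CPM and Csf1 from 319 ± 12.8 to 182 ± 6.25 CPM. Over the 9 partner lists together, 139 different genes were found and 123 tested, with 62 higher, 56 lower and 5 without a call. The corresponding shares of all tested genes are those given for the panel.

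**Figure D5:**
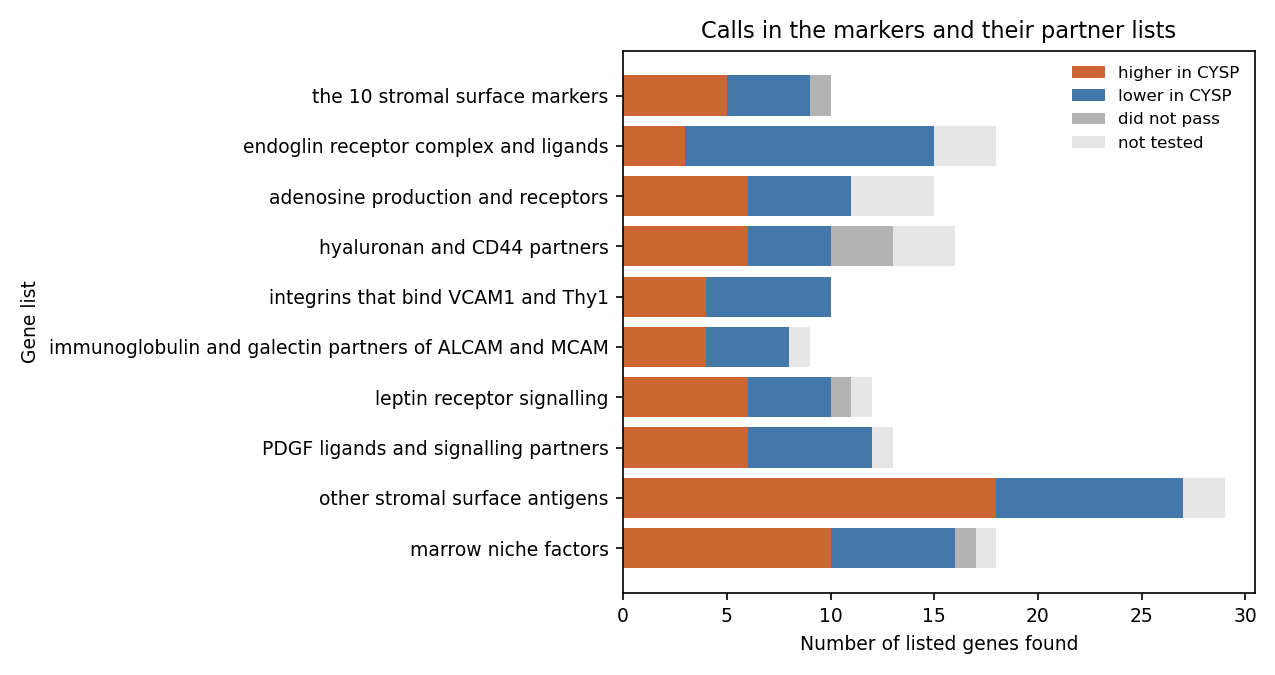
Number of genes higher in CYSP, lower in CYSP, not passing and not tested in the panel of 10 and in each of the 9 partner lists. The endoglin list has 12 lower and 3 higher, and the list of other stromal antigens has 18 higher and 9 lower. Of all tested genes 38.2% were higher and 37.8% lower.

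Thy1, Alcam and Mcam are also proteins of nerve cells, and these 3 of the 10 markers carried a neuronal cell-part term (axon, dendrite, growth cone, neuronal cell body or perikaryon) in the deposited annotation, as did 5.43% of tested genes. Of 12 neuron genes 4 were tested, 2 higher and 2 lower, beside 38.2% and 37.8% of all tested genes. The summed level of the list was 14.6 to 15.1 CPM in CK and 87.98 to 92.6 CPM in CYSP. Its largest parts were Tubb3 and Map2 in CK and Snap25 and Tubb3 in CYSP. Tubb3 rose from 8.67 ± 1.074 to 37.8 ± 2.59 CPM. Snap25 had 1 count over the CK samples and 2236 counts over the CYSP samples, where its mean was 48.8 CPM. Map2 fell from 4.27 ± 0.352 to 1.35 ± 0.19 CPM and Dcx from 1.58 ± 0.414 to 0.0658 ± 0.0684 CPM. The CYSP mean of Dcx lies below the level of 3 counts in a sample. Rbfox3 and Elavl4 were at 0 in every sample. Of the markers annotated to neuronal cell parts, Thy1 rose and Alcam and Mcam fell. By the same annotation 7 of the 10 markers were on the external side of the plasma membrane, as were 1.51% of tested genes, and 5 took part in cell adhesion, as did 2.01%. The panel was chosen as surface proteins, so these high shares follow from that choice and are not a result of these data. The adhesion group, Thy1, Cd44, Alcam, Mcam and Vcam1, held 2 that rose and 3 that fell, and the 4 annotated to cell migration, Eng, Cd44, Pdgfra and Pdgfrb, held 3 that rose and 1 that fell.

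Transcripts of other cell states moved alongside. The counts that follow stand beside 38.2% of all tested genes higher and 37.8% lower. Of 10 proliferation genes 9 fell and none rose, with a summed level of 679 to 782 CPM in CK and 264 to 274 CPM in CYSP. Of 5 tested fat-cell genes 3 rose and 1 fell, with a summed level of 76.3 to 83.1 CPM in CK and 612 to 643 CPM in CYSP, most of the latter from Adipoq, and Cidec was at 0 in every sample. Of 6 tested bone and cartilage genes 2 rose and 3 fell, with 729 to 781 CPM in CK and 155 to 159 CPM in CYSP, and Bglap was at 0 in every sample. The part of these states in the values of the markers was not tested.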

How the data were processed

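Polyadenylated RNA of 6 samples, grouped by their titles, was sequenced. The submitters' processing notes name fastp 0.18.0, RSEM, HISAT2 and StringTie 1.3.1 without their roles. Genome build, annotation and strand setting: not given in the sources used here. Per the file headers, the authors deposited raw counts and FPKM per gene and sample, their mean FPKM, the log2 fold change of those means (a mean of 0 was set to 0.001) and a p-value and adjusted p-value from an unnamed test. If RSEM made the counts, they are rounded estimates.

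Counts were tested across all genes with edgeR 4.0.16 in R 4.3.3 (filterByExpr, TMM, robust glmQLFit and glmQLFTest, Benjamini-Hochberg adjustment over 12623 genes), and standard errors come from the F statistic. CPM values are TMM-scaled. Alternatives were other scalings, filters, DESeq2 1.42.0, limma 3.58.1 (voom, and trend on log2(FPKM + 1 or 0.1)), each sample left out, the replicate block, assumed variation, glmTreat and, for the ratio and order, counts. Same-numbered samples did not deviate together (correlations -0.022, 0.0104 and 0.00143), so the numbers were not taken as pairs.

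The markers and lists were chosen with earlier results of these data known. All 10 markers are named; from each partner list the rule takes at most 4 genes past the threshold by largest change (minimum mean 1 CPM) plus at most 2 that moved against the majority, and only some of these are printed. Partners named outside it (Ada, Enpp3, Alpl, Acp3, Adk, Adora1, Adora3, Lgals8, Has2, Rdx, Ezr, Mmp14, Itgb1, Icam1, Lama4, Pdgfb, Pdgfc, Pdgfd, Lep, Leprot, Anpep, Ngfr, Cxcl12, Kitlg, Apoe, Grem1, Csf1 and the cell type markers) were chosen after their values were seen. Of 239 listed genes, 235 were found, and Cebpa, Entpd2, Gas1 and Lyve1 were not analysed here. Promoter sequences are from RefSeq (GRCr8).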

Additional observations from a re-analysis of the deposited data

How the results depend on the processing

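Of 197 marker log2 fold changes under alternatives, 180 kept their side of the threshold, 17 lost the call and 0 calls reversed; Lepr, never called, took either sign. Without each sample in turn, 5 markers stayed higher and 3 to 4 lower. With the replicate block 5 were higher and 4 lower, and the partner lists had 61 higher and 56 lower. With an assumed variation of 0.2, 4 markers were higher and 2 lower. With 0.4, 1 was higher and 1 lower, and the partner lists had 24 higher and 20 lower. With glmTreat 1 marker was higher and 2 were lower, with 27 and 24 in the partner lists. These settings ask for more than a difference from 0 at the estimated spread. Every other scaling, test and filter run gave 5 markers higher and 4 lower, but the FPKM fits with a minimum and the stricter count filter left out Lepr. Scaling by library size alone moved the median of all genes by -0.083 on the log2 scale. The shift of the PDGF receptor ratio was 2.53 in counts and 2.48 to 2.61 without each sample in turn. The number of positions held in both groups was 4 under the alternative. Over all genes the calls were 4828 higher and 4772 lower, but 3102 and 2801 with an assumed variation of 0.2, 1496 and 1209 with 0.4, and 1504 and 1217 with glmTreat. They leaned lower with library size alone (4345 higher and 5290 lower) and with limma-trend on log2(FPKM + 1) with a minimum (3968 and 5049). Low counts limit Lepr and Vcam1.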
